A study of Mus musculus with 6 samples.

Results

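The interferon regulatory factors (IRFs) were followed in myeloid cells of the infarcted mouse heart, with and without the integrin α5 chain. The members were the rows of the count table named Irf1, Irf2, Irf3, Irf4, Irf5, Irf7, Irf8 and Irf9, 8 of 54532 genes. All 8 passed the filter on low counts, which 14522 genes passed.

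All mice were C57BL/6 animals, 12 weeks of age, whose coronary artery had been occluded for 7 days, and all carried loxP-flanked (fl/fl) alleles of Itga5. The 3 control libraries came from ITGA5 fl/fl mice, which had the floxed alleles and no Cre. The 3 Myα5KO libraries came from mice with the same floxed alleles and LyzM-Cre, in which Cre is made from the lysozyme M locus and acts in myeloid cells generally, neutrophils and monocytes included, not in macrophages alone. The hearts of individual mice were digested, Ly6G+ cells were removed on magnetic beads and CD11b+ cells were kept, so that the RNA is that of a mixed CD11b+ population in bulk. The controls lacked Cre, so effects of Cre itself and of Itga5 loss cannot be told apart here.

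The labels held in these libraries. Itga5 lay between 568 and 653 CPM (counts relative to the library size, adjusted by the TMM factors of edgeR) in the controls and between 47.1 and 49.99 CPM in the Myα5KO libraries. The 8 macrophage markers, among them Csf1r and the C1q genes, summed to between 12378 and 12642 CPM in the controls. In the Myα5KO libraries they summed to between 11703 and 12374 CPM, so that the highest lay only just under the lowest control. The TMM factors were 0.969 to 0.979 in the controls and 1.02 to 1.03 in the Myα5KO libraries. A larger factor lowers the CPM, and these sums were not taken under another scaling. Of the 8 markers, 7 had negative log2 fold changes (Myα5KO over control, none at an adjusted p of 0.05 or less). Fcgr1 was higher (0.27, edgeR adjusted p = 0.0215). Total counts were 15424451 to 18152357 in the controls and 18232574 to 18419287 in the Myα5KO libraries, so that every Myα5KO library was the deeper. Of the 14522 genes tested, 517 were higher and 754 lower in Myα5KO cells at an adjusted p of 0.05 or less, which is what "called" means throughout. With library totals as the only scaling, the split was 1212 higher and 518 lower.

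IRFs are transcription factors that share a DNA-binding domain and recognise repeats of GAAA in the promoters of interferon-responsive genes. Some wait in the cytoplasm until kinases downstream of nucleic acid and Toll-like receptors phosphorylate them, after which they switch on interferon genes. Others act within the response to interferon or set the identity of myeloid and lymphoid cells, and in macrophages several are themselves interferon-inducible.

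Promoter stretches are shown for Irf2, Irf8 and Irf1, whose windows held motif matches, and for Irf7, which had the largest change. The stretches let the regulatory letters be seen beside the values. They are from the RefSeq promoter table on build GRCm38.p6, which held 11 windows for the 8 members, each from 250 bases before to 50 bases after an annotated start, and are written 5′ to 3′ on the strand of the gene. The Irf2 stretch is chr8:46739495-46739644 (plus strand), that of Irf8 chr8:120736168-120736227 (plus), that of Irf1 chr11:53769894-53769953 (plus) and that of Irf7 chr7:141266482-141266674 (minus). Capitals mark matches to the motifs given after the sequences.
Irf2: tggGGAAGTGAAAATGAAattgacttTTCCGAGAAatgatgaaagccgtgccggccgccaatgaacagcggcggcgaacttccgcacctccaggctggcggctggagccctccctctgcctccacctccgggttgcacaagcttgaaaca
Irf8: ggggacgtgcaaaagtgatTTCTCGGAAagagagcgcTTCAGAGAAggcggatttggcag
Irf1: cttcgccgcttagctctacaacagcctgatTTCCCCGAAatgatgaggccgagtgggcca
Irf7: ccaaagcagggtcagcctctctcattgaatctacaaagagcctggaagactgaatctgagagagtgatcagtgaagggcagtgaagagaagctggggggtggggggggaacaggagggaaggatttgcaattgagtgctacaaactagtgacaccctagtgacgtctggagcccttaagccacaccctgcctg

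Motifs of 4 kinds were searched on both strands: GAAANNGAA, a pair of IRF half-sites, TTCNNNGAA, the GAS element of STAT factors, GGAANNGAA, a composite of an ETS and an IRF half-site, and TGANTCA, the AP-1 site. The Irf2 window held the first 3 of these, with the composite beginning at -247 and the IRF pair at -241 from the start, so that both overlap within 1 capital run, and the GAS letters beginning at -224. The Irf8 window held GAS letters at -171 and -153, and an Irf1 window at -90. No match lay in the windows of Irf7, Irf9, Irf3, Irf4 or Irf5. Of all 32851 windows in the table, 8.56% held the IRF pair, 8.30% the GAS element, 8.24% the composite and 7.81% the AP-1 site, against 1, 3, 1 and 0 of the 11 member windows. A match of letters is a description of the window and not evidence of binding.

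Of the 8 members, Irf7, Irf2 and Irf9 were higher in Myα5KO cells and none was called lower. Of all tested genes, 8.75% were called, 3.56% higher and 5.19% lower. The log2 fold change was positive for 7 members and negative for 1, with a median of 0.22 against 0.01 over all tested genes. The 3 Myα5KO values lay above all 3 control values for 5 members and below them for 1, a separation seen in 14.9% of all tested genes in the upward and in 13.8% in the downward direction. In bulk RNA, a change in the number of cells of a type and a change in RNA per cell cannot be told apart.

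**Figure D1:**
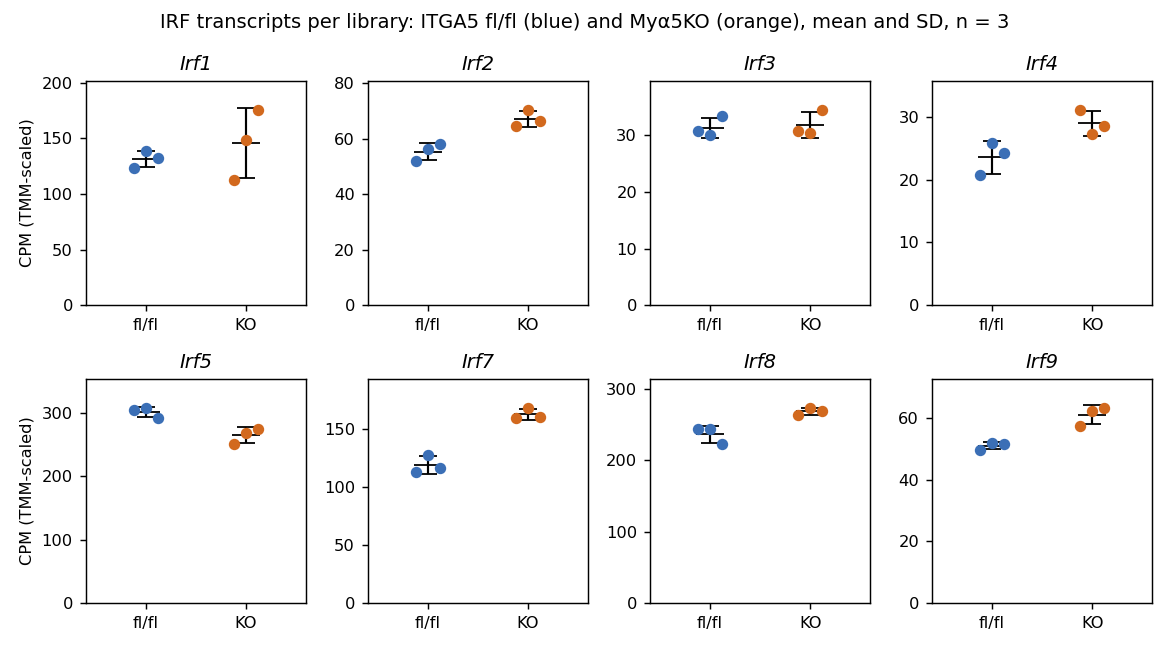
Level of each IRF transcript in CPM (vertical axes, each from 0) in the 3 ITGA5 fl/fl and the 3 Myα5KO libraries; points are libraries, and the horizontal mark and bar are the mean and SD. The Myα5KO points of Irf2, Irf4, Irf7, Irf8 and Irf9 lie above the control points, those of Irf5 lie below them, and those of Irf1 and Irf3 overlap with them.

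Irf7 encodes the factor that drives the amplified phase of type I interferon production, and is itself an interferon-induced gene. It had the largest change among the members (ENSMUSG00000025498, chr7:141262706-141266481, minus strand, GRCm38). Its level was 113, 128 and 117 CPM in the control libraries and 159.9, 168 and 161 CPM in the Myα5KO libraries. The lowest Myα5KO library thus lay above the highest control. The mean rose from 119 ± 7.86 to 163 ± 4.66 CPM (SD, n = 3 per group), a log2 fold change of 0.45 (SE 0.07, 95% CI 0.31 to 0.59, edgeR adjusted p = 0.00142). Leaving out any 1 of the 6 libraries kept Irf7 called, with adjusted p from 0.00226 to 0.0128.

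Irf9 and Irf2 were also higher, by smaller amounts. Irf9 (ENSMUSG00000002325, chr14:55603571-55610030, plus strand) encodes the DNA-binding subunit of ISGF3, the complex that carries the type I interferon signal to the nucleus. Its level was 49.7, 51.9 and 51.5 CPM in the controls and 57.4, 62.3 and 63.2 CPM in the Myα5KO libraries, every value above every control. The log2 fold change was 0.26 (SE 0.07, 95% CI 0.11 to 0.40, edgeR adjusted p = 0.0306). The Irf9 call held only without Myα5KO replicate 1 (adjusted p = 0.0257) among the fits with 1 library left out. It was lost without ITGA5 fl/fl replicate 1 (adjusted p = 0.0928), 2 (0.0889) or 3 (0.0862) and without Myα5KO replicate 2 (0.124) or 3 (0.071), with log2 fold changes of 0.23 to 0.29 over all 6 fits. The exons of Irf9 share 123 bases, 2.28% of their length, with Rnf31 on the same strand, and Rnf31 was not called.

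Irf2 (ENSMUSG00000031627, chr8:46739732-46847458, plus strand) encodes a factor known mostly as a repressor that occupies the same elements as IRF1. It was measured at 51.8, 56.2 and 57.99 CPM in the controls and at 64.6, 70.3 and 66.3 CPM in the Myα5KO libraries. All 3 Myα5KO libraries were above the highest control. The log2 fold change was 0.28 (SE 0.07, 95% CI 0.13 to 0.42, edgeR adjusted p = 0.026). The Irf2 call was lost without ITGA5 fl/fl replicate 1 (adjusted p = 0.0934) or 2 (0.0783) and without Myα5KO replicate 2 (0.126). The promoter stretch of Irf2 shown above is that with the overlapping ETS-IRF and IRF letters.

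Irf4, Irf8 and Irf5 were separated between the groups without being called. Irf4 (chr13:30749226-30766976, plus strand), linked to alternative activation of macrophages and to plasma cells, lay at 20.7, 25.8 and 24.2 CPM in the controls and at 31.04, 27.2 and 28.6 CPM in the Myα5KO libraries (log2 fold change 0.29, SE 0.10, 95% CI 0.09 to 0.50, edgeR adjusted p = 0.0778). Irf8 (chr8:120736358-120756694, plus strand), a factor of monocyte and dendritic cell development that binds DNA with PU.1, lay at 244, 243 and 222 CPM in the controls and at 263, 273 and 269 CPM in the Myα5KO libraries (0.18, SE 0.07, 95% CI 0.04 to 0.32, adjusted p = 0.104). Irf4 thus had a point estimate above those of Irf2 and Irf9 but, at 23.6 CPM in the controls, a wider interval.

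Irf5 was the only member with a negative log2 fold change. Irf5 (chr6:29526625-29541871, plus strand) encodes a factor activated through MyD88 and tied to the inflammatory cytokines of macrophages. It stood at 305, 308 and 293 CPM in the controls and at 251, 269 and 276 CPM in the Myα5KO libraries, without overlap (log2 fold change -0.19, SE 0.07, 95% CI -0.33 to -0.05, edgeR adjusted p = 0.0981). DESeq2 called Irf5 (-0.19, adjusted p = 0.0471), and none of the other 16 alternatives did. Of the exon bases of Irf5, 411 (14.1%) are shared with Tnpo3 on the other strand. Whether the counting used strand is not given in the sources used here, so reads over these bases are uncertain. Tnpo3 was not called.

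Irf1 and Irf3 did not separate the groups. Irf1 (chr11:53770014-53778374, plus strand), the activator induced by interferon-γ through a GAS element, lay at 123, 138 and 132 CPM in the controls and at 113, 149 and 175 CPM in the Myα5KO libraries. These 3 Myα5KO values enclosed all the controls, with 1 library below and 2 above them. The log2 fold change was 0.15 (SE 0.12, 95% CI -0.11 to 0.40, edgeR adjusted p = 0.499), and it depended on single libraries, being 0.30 (adjusted p = 0.0458) without Myα5KO replicate 1 and -0.0066 (adjusted p = 0.979) without Myα5KO replicate 3. Irf3 (chr7:44997648-45002848, plus strand), present before stimulation and activated by phosphorylation, lay at 30.8, 30.02 and 33.3 CPM in the controls and at 30.7, 30.4 and 34.4 CPM in the Myα5KO libraries. Its log2 fold change of 0.02 had a 95% CI of -0.16 to 0.20 under the main scaling (edgeR adjusted p = 0.911). With library totals as the only scaling, the Irf3 value was 0.10, also without a call.

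**Figure D2:**
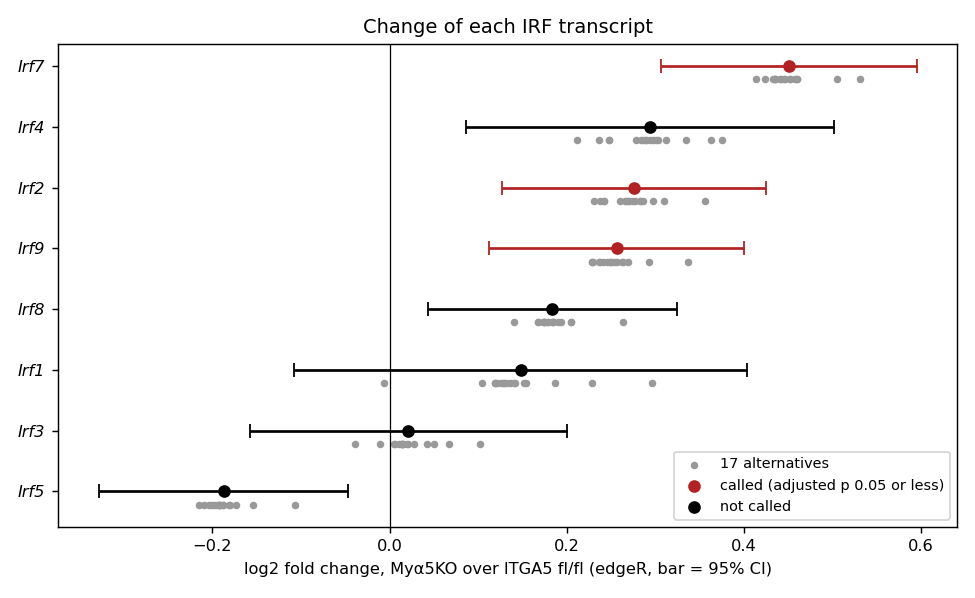
Log2 fold change of each member, Myα5KO over ITGA5 fl/fl (horizontal axis), with its 95% CI from edgeR; red members were called, black ones were not, and grey points below each bar are the values in 17 alternative fits. Irf7 lies at 0.45 with all grey points between 0.41 and 0.53, and the grey points of Irf1 and Irf3 fall on both sides of 0.

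Levels were compared between members with FPKM, which divide the counts by gene length. In the controls, Irf5 was the most abundant transcript of the family at 104 ± 2.53 FPKM, with 44.6% of the summed FPKM of the 8 members. Irf8 (33.4 ± 1.67), Irf1 (32.9 ± 1.79) and Irf7 (31.5 ± 1.96 FPKM) followed with overlapping ranges. Irf9 (9.43 ± 0.201) and Irf3 (9.08 ± 0.526) overlapped as well, and Irf2 (7.45 ± 0.422) and Irf4 (4.78 ± 0.514 FPKM) closed the order without overlap.

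In Myα5KO cells, Irf5 remained first at 90.6 ± 3.79 FPKM, 37.3% of the family sum. Irf7 stood second at 42.9 ± 1.38 FPKM and did not overlap with Irf8 (37.7 ± 0.738), but Irf1 (36.3 ± 7.52 FPKM) ranged from 28.3 to 43.3 FPKM and overlapped with both. In Myα5KO replicate 3, Irf1 (43.3 FPKM) lay above Irf7 (41.9 FPKM). The share of Irf7 in the family sum was 17.7%, against 13.6% in the controls. Below them, Irf9 (11.2 ± 0.513) lay above Irf3 (9.18 ± 0.570) and Irf2 (8.99 ± 0.411 FPKM), which overlapped, and Irf4 (5.86 ± 0.410 FPKM) was again last.

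The order between genes, and the shares of the family sum given above, depended on the length used. The deposited length was 1.30 times that of the principal transcript for Irf5 and 2.48 times for Irf8. The deposited length is the union of all annotated exons, and for Irf7 its 3776 bases equal the whole span of the gene, introns included. With the length of the principal transcript instead, 1916 bases for Irf7, the Myα5KO means were 117 for Irf5, 93.5 for Irf8, 84.5 for Irf7 and 67.5 FPKM for Irf1, and Irf8 rather than Irf7 stood second. Irf2, whose deposited length was 2.96 times that of its principal transcript, moved from 8.99 to 26.6 FPKM, above Irf9 (24.6) and Irf3 (15.6 FPKM). Comparisons of a gene with itself between the groups do not depend on length.

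**Figure D3:**
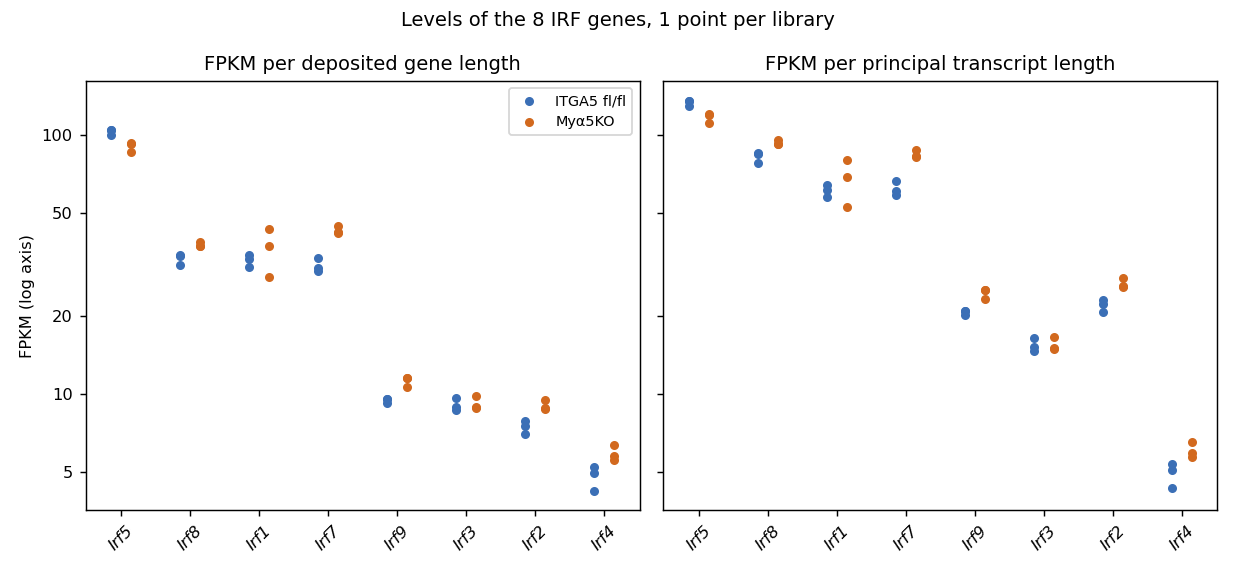
FPKM of the 8 members (log axis), 1 point per library, ITGA5 fl/fl in blue and Myα5KO in orange, with the deposited gene length (left) and with the principal transcript length (right). Irf5 is highest and Irf4 lowest in both panels, while Irf7 lies above Irf8 in the Myα5KO libraries on the left and below it on the right.

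Ratios between members with linked roles were compared within each library. IRF5 and IRF4 compete for MyD88, and the Irf5 over Irf4 ratio of FPKM, on the log2 scale, was 4.64, 4.33 and 4.35 in the controls and 3.77, 4.06 and 4.02 in the Myα5KO libraries. The Myα5KO ratios were all lower, with a mean difference of -0.49 (exact two-sided permutation test, p = 0.1, the smallest this design allows, adjusted p = 0.3 over 3 ratios). The ratio of the activator Irf1 to the repressor Irf2 was 2.14 ± 0.0553 in the controls and 1.99 ± 0.298 in Myα5KO cells (difference -0.15, exact permutation p = 0.5). The ratio of Irf8 to Irf4, both of which bind with PU.1, was 2.81 ± 0.195 and 2.69 ± 0.124 (difference -0.12, exact permutation p = 0.5). The groups overlapped for both of these.

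The genes whose pattern over the 6 libraries was most like that of the called members were found by the root mean square difference of centred log2 CPM, among 9358 genes. Parp9 (0.029), Eef2kmt (0.033) and Gbp9 (0.044) were nearest to Irf7. Mrpl15 (0.014), Rnpep (0.027) and Ahsa1 (0.032) were nearest to Irf2, and Coro1a (0.026), Atg16l1 (0.027) and Uba2 (0.027) to Irf9. No gene was among the nearest 3 of more than 1 of these members.

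Upstream of the IRFs, the interferon genes themselves were at or near 0. Of 11 interferon ligand genes, 8 had no count in any library, where a count of 0 allows up to 3 counts, or 0.163 to 0.194 CPM on the library totals. Ifnb1 had 4, 12 and 7 counts in the controls and 2, 2 and 10 in the Myα5KO libraries, and Ifng had 4, 9 and 10 counts and 5, 6 and 11 counts. Ifnk had 4, 1 and 2 counts and 1, 2 and 0. None of them passed the filter, so a difference in interferon transcripts was not detectable at this depth.

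Of the 8 genes for interferon receptors, Janus kinases and STATs, 2 were higher and 1 was lower, with a median log2 fold change of -0.06. Beside this and each list below stands the share over all tested genes, 3.56% called higher and 5.19% called lower. Stat2, which encodes a partner of IRF9 in ISGF3, was at 58.2, 64.6 and 60.7 CPM in the controls and at 72.0, 79.7 and 73.3 CPM in the Myα5KO libraries, without overlap (log2 fold change 0.29, SE 0.07, edgeR adjusted p = 0.0194). Stat2 lost its call without ITGA5 fl/fl replicate 1 (adjusted p = 0.0692) or 3 (0.0709) and without Myα5KO replicate 2 (0.106). Tyk2, the kinase of the type I receptor, was higher by 0.23 (adjusted p = 0.0393), a call that held only without Myα5KO replicate 3 (0.0396) and reached 0.145 without ITGA5 fl/fl replicate 3. Jak2, which serves the interferon-γ receptor among others, fell from 243 ± 19.996 to 156 ± 19.1 CPM (-0.64, SE 0.09, adjusted p = 0.00104). The receptor chains Ifnar1 (-0.17), Ifnar2 (-0.18), Ifngr1 (0.06) and Ifngr2 (-0.03) were not called.

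Of the 18 sensors, adaptors and kinases that lead to phosphorylation of IRF3, IRF5 and IRF7, 4 were higher and 3 were lower (median 0.20). The RNA sensor Ddx58, which encodes RIG-I, went from 45.1 ± 0.795 to 61.6 ± 7.98 CPM (log2 fold change 0.45, edgeR adjusted p = 0.00707). Slc15a4, a lysosomal transporter on the route from endosomal Toll-like receptors to IRF5, went from 78.9 ± 2.35 to 103 ± 3.75 CPM (0.38, adjusted p = 0.00281). Mb21d1, which encodes the DNA sensor cGAS, was higher by 0.38 (adjusted p = 0.0339), a call that held only without Myα5KO replicate 1 (0.022) and reached 0.129 without ITGA5 fl/fl replicate 3. Also higher was the endosomal RNA receptor Tlr7 by 0.25 (adjusted p = 0.0301), a gene named after its values were seen. The Tlr7 call held without ITGA5 fl/fl replicate 1 (0.0314) or Myα5KO replicate 3 (0.0278) and was lost in the other 4 fits with a library left out (0.0837 to 0.143).

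The 3 lower genes of this list were both kinases of IRF3 and IRF7 and the adaptor that links them to the sensors. Traf3 fell from 134 ± 10.8 to 90.9 ± 14.7 CPM (log2 fold change -0.56, edgeR adjusted p = 0.00487), Ikbke from 105 ± 13.0 to 75.5 ± 3.35 CPM (-0.47, adjusted p = 0.00433) and Tbk1 from 126 ± 8.30 to 105 ± 3.59 CPM (-0.27, adjusted p = 0.0266). The Tbk1 call held without ITGA5 fl/fl replicate 2 (adjusted p = 0.0328) or Myα5KO replicate 3 (0.0481) and was lost in the other 4 fits with a library left out (0.0528 to 0.0985), while Traf3 and Ikbke were called in all 6. Under library totals as the only scaling, 9 genes of the list were higher and 2 lower.

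**Figure D4:**
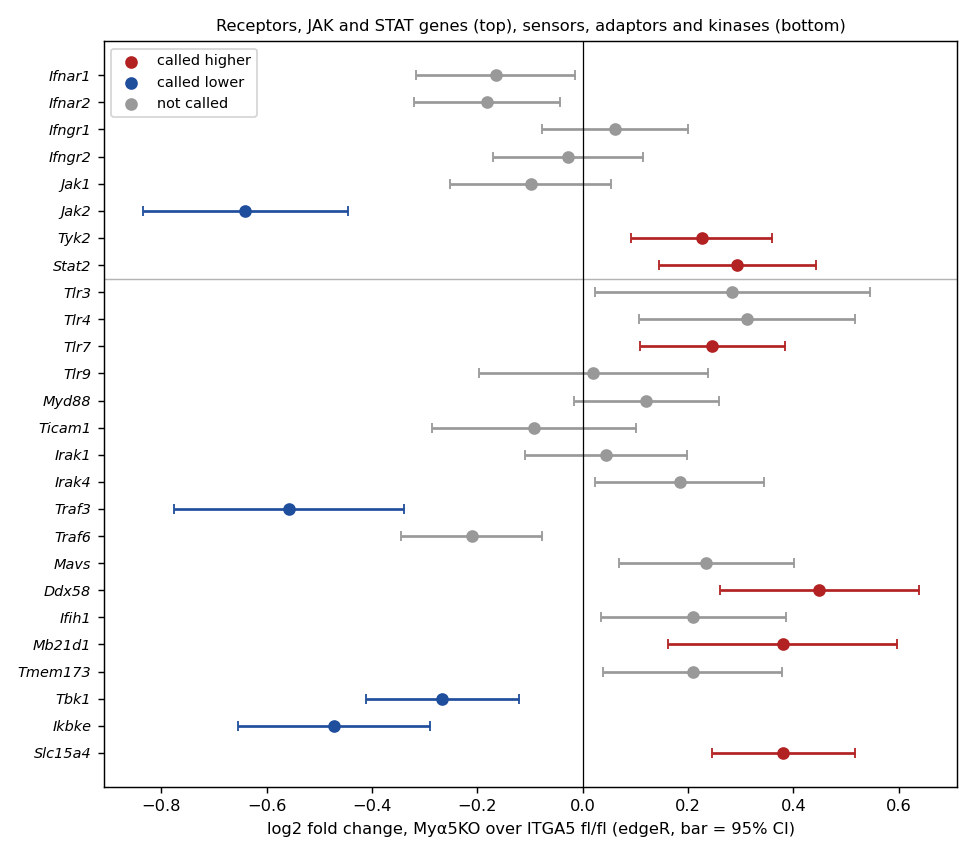
Log2 fold change, Myα5KO over ITGA5 fl/fl, with 95% CI from edgeR, of 8 receptor, JAK and STAT genes (top) and of 18 sensors, adaptors and kinases (bottom); red genes were called higher, blue ones lower and grey ones were not called. Ddx58 lies furthest to the right at 0.45, and Jak2 furthest to the left at -0.64.

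Of 8 binding partners and cofactors of the IRFs, Spib alone was called (14.7 ± 1.99 to 21.97 ± 5.96 CPM, log2 fold change 0.58, edgeR adjusted p = 0.0426). Its highest value was that of Myα5KO replicate 1, at 28.8 CPM, without which it was 0.33 (adjusted p = 0.133), and its call held only without Myα5KO replicate 2 (0.0207) or 3 (0.0397). Spib encodes an ETS factor of B cells and plasmacytoid dendritic cells. Spi1, which encodes PU.1, the partner of IRF4 and IRF8, was at 448 ± 7.76 and 422 ± 4.56 CPM (-0.09, adjusted p = 0.453).

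Downstream, 17 of 23 genes known as targets of type I interferon were higher and 1 was lower, with a median log2 fold change of 0.48. Ddx60 rose from 22.4 ± 1.35 to 36.9 ± 2.38 CPM (0.72, edgeR adjusted p = 0.000278), Oas2 from 56.5 ± 7.40 to 89.0 ± 5.78 CPM (0.65, adjusted p = 0.000825) and Ifi44 from 5.01 ± 0.659 to 8.29 ± 1.10 CPM (0.72, adjusted p = 0.0112). The call of Ifi44 was lost without ITGA5 fl/fl replicate 3 (0.0597) or Myα5KO replicate 2 (0.0538). Oasl1, whose product restrains translation of Irf7 mRNA, was the lower gene, at 41.8, 53.3 and 60.3 CPM in the controls and 32.7, 37.7 and 31.3 CPM in the Myα5KO libraries (-0.61, adjusted p = 0.00595, called in all 6 fits with a library left out). Irf7 and Oasl1 transcripts thus differed between the groups in opposite directions, and no IRF7 protein was analysed here. Isg15, a classical interferon-stimulated gene, was at 45.4 ± 7.46 and 44.9 ± 3.34 CPM (-0.02, adjusted p = 0.937). With a library left out, 9 to 16 genes of the list were called higher, the fewest without Myα5KO replicate 2. With limma on FPKM, 7 were called higher with either pseudocount and 0 without the FPKM filter, where 17 had an unadjusted p under 0.05.

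Of 20 genes known as targets of interferon-γ and IRF1, 13 were higher and 1 was lower, with a median of 0.31, whereas the Irf1 transcript itself was not called. Cxcl9, a T cell chemokine, was at 9.18, 12.0 and 9.33 CPM in the controls and at 13.4, 31.6 and 15.4 CPM in the Myα5KO libraries (log2 fold change 0.98, edgeR adjusted p = 0.0306), and without Myα5KO replicate 2, the highest of them, the value was 0.50 (adjusted p = 0.0643). Its call was also lost without ITGA5 fl/fl replicate 1 (0.0856) or 3 (0.118). Ciita, the master regulator of MHC class II genes, rose by 0.68 (adjusted p = 0.00617) and the GTPase gene Igtp by 0.52 (adjusted p = 0.0123, and 0.0567 without Myα5KO replicate 2). Cd274, which encodes PD-L1, fell from 159 ± 8.91 to 89.5 ± 5.78 CPM (-0.83, adjusted p = 2.81e-05). Without Myα5KO replicate 2, 4 genes of the list were called higher, and with limma on FPKM, 2 with either pseudocount and 0 without the FPKM filter, where 14 had an unadjusted p under 0.05.

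The lists tied to IRF4, IRF5 and IRF8 were small, and 8.75% of all tested genes were called in either direction. Of 8 genes of alternative activation, the program linked to IRF4, Arg1 alone was called (log2 fold change -1.60, edgeR adjusted p = 0.0261). Arg1 was at 101, 592 and 291 CPM in the controls and at 127, 102 and 95.1 CPM in the Myα5KO libraries, so its groups overlapped. Without ITGA5 fl/fl replicate 2, the highest library, the value was -0.86 (adjusted p = 0.116), and without ITGA5 fl/fl replicate 3 or Myα5KO replicate 2 or 3 the adjusted p was 0.0597, 0.0644 and 0.0812. Of 5 tested cytokine genes linked to IRF5, all had negative values and 2 were called, Il6 (49.2 ± 12.8 to 25.5 ± 4.84 CPM, -0.95, adjusted p = 0.0039) and Il1b (-0.29, adjusted p = 0.0359). The Il1b call held only without Myα5KO replicate 2 (0.0398) and reached 0.166 without ITGA5 fl/fl replicate 3. Of 6 genes linked to IRF8, Klf4, a factor of monocyte differentiation, was called (409 ± 68.3 to 537 ± 44.0 CPM, 0.39, adjusted p = 0.0333). The Klf4 call held only without ITGA5 fl/fl replicate 1 (0.00659) or Myα5KO replicate 1 (0.0197) and reached 0.144 without ITGA5 fl/fl replicate 3.

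**Figure D5:**
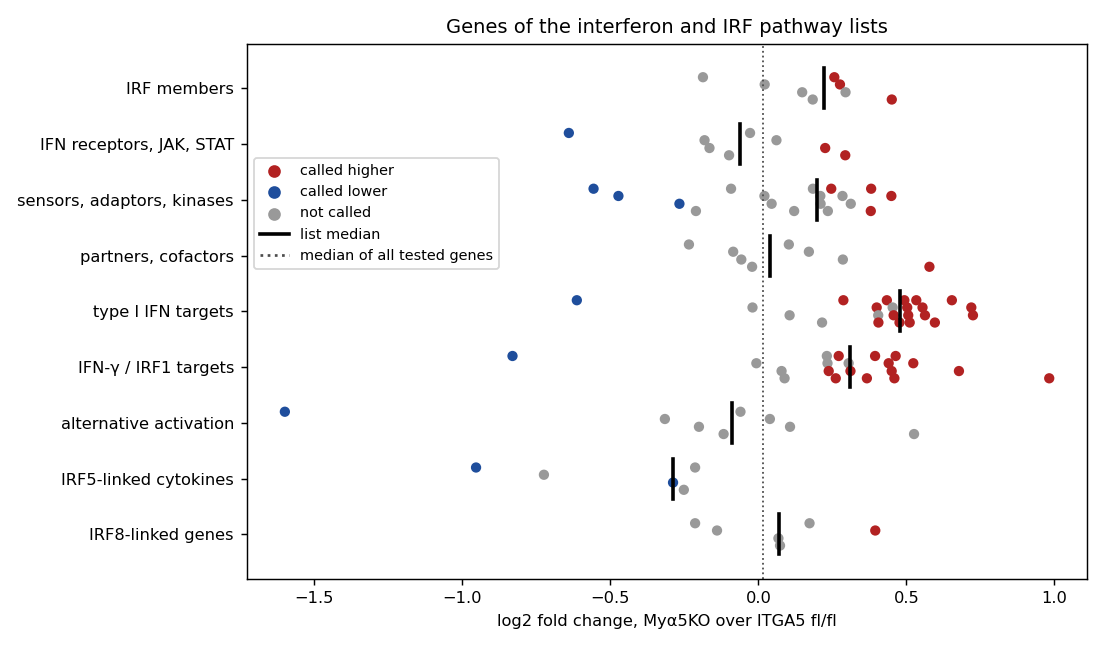
Change on the log2 scale, Myα5KO over ITGA5 fl/fl, of every tested gene in 9 lists (rows); red genes were called higher, blue ones lower and grey ones were not called, black bars are list medians and the dotted line is the median of all tested genes. The medians of the type I interferon list (0.48) and the interferon-γ list (0.31) lie to the right of the dotted line, and that of the IRF5-linked cytokines (-0.29) to its left.

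Marker genes of other cell types, several of them rich in particular IRFs, were measured beside these values. The 7 monocyte markers, a cell type in which Irf8 is prominent, summed to 312 to 363 CPM in the controls and to 466 to 495 CPM in the Myα5KO libraries. Ccr2 was the largest part of that sum (168 and 250 CPM). Of the 7, 6 were positive and 1, Treml4, was negative (-0.03, not called). The 4 called higher were led by Ly6c2 (log2 fold change 0.71, edgeR adjusted p = 0.00225) and Ccr2 (0.58, adjusted p = 0.00111). The 8 B cell markers, from cells that express Irf4 and Irf8, summed to 83.9 to 128 CPM and to 124 to 204 CPM, with 2 called higher. The 10 granulocyte markers summed to 178 to 227 CPM and to 251 to 376 CPM, with 7 called higher. The largest part of that sum was Csf3r (155 and 169 CPM, log2 fold change 0.13, not called). The 8 tested were all positive, with a median of 1.53 and a maximum of 2.05 for Ltf. Ly6g itself, the antigen used for depletion, averaged 0.0196 and 0.0532 CPM.

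Plasmacytoid dendritic cells, the type best known for high Irf7, were scarce in these libraries by their markers. Their 6 markers summed to 8.28 to 8.42 CPM in the controls and to 8.29 to 11.6 CPM in the Myα5KO libraries, with Siglech at 1.64 and 1.35 CPM. Of the 5 tested, 3 were positive and 2 negative (Siglech -0.26 and Ccr9 -0.10, neither called). The 1 marker called higher, Pacsin1, had few reads, with 7, 5 and 4 counts in the controls and 15, 18 and 17 in the Myα5KO libraries. The 5 markers of type 1 conventional dendritic cells, which depend on Irf8, summed to 239 to 247 and to 246 to 297 CPM. Most of that sum was Wdfy4 (199.9 and 223 CPM), Cadm1 was called higher (log2 fold change 0.32), and the others went both ways without a call (Clec9a 0.54, Xcr1 -0.43, Itgae -0.36). The 7 markers of type 2 and migratory dendritic cells, tied to Irf4, summed to 212 to 253 and to 253 to 272 CPM. Of these 7, 5 were positive, with 2 called higher (Cd209a 0.57 and Clec10a 0.37). The 2 negative ones, Ccr7 (-0.04) and Zbtb46 (-0.01), were not called. The 6 plasma cell markers, another Irf4-expressing type, summed to 249 to 277 and to 197 to 254 CPM, a sum made up largely of Prdm1 (161 and 122 CPM, called lower). Of the 5 tested, 3 were positive and 2 negative (median 0.05), with Jchain at 0.36 and Sdc1 at -0.18, neither called. The 9 T and NK cell markers, from cells that make interferon-γ, summed to 13.5 to 17.9 and to 19.4 to 24.3 CPM, and the 5 of them that were tested had positive values (median 0.66) without a call. Among cells without a known tie to 1 IRF, the 7 fibroblast markers, all negative with Postn called lower, summed to 1068 to 1270 and to 778 to 1039 CPM. The 7 cardiomyocyte markers summed to 20.4 to 22.97 and to 13.4 to 17.8 CPM, with Tnnt2 and Actc1 called lower. The 5 endothelial markers summed to 269 to 310 and to 296 to 331 CPM, which overlap. Of these 5, 3 were positive, with Kdr called higher, and 2 were negative (Cdh5 -0.03 and Vwf -0.01, neither called). The part of these cell types in the IRF and interferon target values was not tested.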

How the data were processed

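Libraries of polyadenylated RNA from 3 ITGA5 fl/fl and 3 Myα5KO mice were assigned to groups by their titles. Per the submitters' processing notes, TopHat2 2.0.9, Cufflinks 2.1.1 and HTSeq 0.6.1 were used with build GRCm38.p6. The count table deposited by the authors gives raw reads for each gene, and the handling of strand and of reads with several matches is not given in the sources used here. The authors also deposited FPKM, which equalled the count divided by the deposited gene length and by a constant proportional to the DESeq2 size factor of each library.

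The main test was glmQLFTest, the quasi-likelihood F test in edgeR 4.0.16 (R 4.3.3), after TMM scaling and filterByExpr with a minimum count of 10 and a minimum total of 15, without covariates, two-sided, with Benjamini-Hochberg adjustment over 14522 genes. The study's methods name DESeq2, which was run (1.42.0) as an alternative beside limma 3.58.1 (voom, and log2(FPKM + 1) or log2(FPKM + 0.1) where 3 or more libraries reached an FPKM of 1, and log2(FPKM + 1) also unfiltered), median-ratio, upper quartile and library-total scaling, a fit that kept every gene with a count, one that required 10 counts from each library, the replicate number as a block, and each library left out in turn. The principal transcript length and the list counts under each alternative were chosen after seeing the data. Levels and ratios used FPKM. The p-values assume that libraries are separate mice, which the methods state for the hearts but the labels do not.

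The IRF members and the gene lists were chosen with earlier results of these data known. Genes named are Itga5, the IRFs, and from each pathway list up to 3 called genes with the largest increase and 3 with the largest decrease, if they averaged 100 counts or more; markers and other genes were named after their values were seen. Totals ranged from 15424451 to 18419287 counts. The SE, CI and p-values of edgeR take in the spread between libraries as well as counting error. Reads carried no molecular identifiers. The scripts were tested on simulated data. Sequences came from RefSeq and lengths from GENCODE. Some genes are not reported here.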

Additional observations from a re-analysis of the deposited data

How the results depend on the processing

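Against 1271 genes called, limma called 472 on log2(FPKM + 1), 448 on log2(FPKM + 0.1) and 10 on log2(FPKM + 1) without a filter, and edgeR called 616 to 1091 with 1 library left out, each among its own tested genes. Against 3 IRF members called, the counts were 1, 1 and 0 in those 3 limma fits, where 6 members had an unadjusted p under 0.05 in each, 5 with library totals as the only scaling and 1 to 4 with 1 library left out. In the same order of limma fits, Irf2 was 0.24, 0.27 and 0.24 and Irf9 0.23, 0.25 and 0.23 on the log2 scale without a call (adjusted p 0.0756, 0.0755 and 0.168, and 0.0658, 0.0652 and 0.136), and Irf7 was 0.44 without a call in the unfiltered fit only (adjusted p = 0.0641). With library totals, Irf4 (0.38) and Irf8 (0.26) were called, without a count filter Irf4 (0.30), and with DESeq2 Irf5 (-0.19). With 1 library left out, Irf2 lay between 0.23 and 0.31, Irf9 between 0.23 and 0.29, Irf1 between -0.0066 and 0.30 and Irf3 between -0.039 and 0.067. Without Myα5KO replicate 3 both Irf1 (-0.0066) and Irf3 (-0.039) were negative, and without ITGA5 fl/fl replicate 2 Irf3 was -0.011. The cause of these differences was not tested. The fits with 1 library left out have fewer samples and also lack the values of that library. Mean FPKM over all libraries became, with the principal transcript length, 64.3 for Irf1, 24.3 for Irf2, 15.5 for Irf3, 125.9 for Irf5, 73.3 for Irf7, 88.1 for Irf8 and 22.6 for Irf9.

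The groups share replicate numbers. The deviations of same-numbered libraries correlated at 0.05, -0.09 and 0.04, and not every library correlated best with its own number. No pairing by number was visible, and with 3 libraries per group these correlations cannot exclude one. With the replicate number as a block, 1181 genes were called, 464 higher and 717 lower, and 3 IRF members.

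Changes in a gene with few reads, such as Ifnb1 or Ifng, were below what this depth can show. With 3 libraries per group, members whose log2 change was near 0.2 had intervals reaching close to 0, and 1 library decided several calls.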
